A study of Mus musculus with 12 samples.

Results

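The enzymes that remove reactive oxygen species and detoxify small molecules were followed in mouse skin after a thermal injury. Members were taken by symbol: superoxide dismutases, catalase, glutathione peroxidases, peroxiredoxins, the thioredoxin group, the enzymes of glutathione synthesis and recycling, glutathione transferases, Nqo1 and carbonyl reductases, cytochromes P450, epoxide hydrolases, and aldehyde and alcohol dehydrogenases. The names found 68 of the 5599 genes that a probe set named alone, on 79 probe sets, and 46 of the 68 were bright enough to be tested, of 3477 genes tested in all. Total RNA from skin of Mus musculus was hybridised to 12 Affymetrix arrays, 1 per sample, and the injury preceded sampling by 0 hours, 2 hours, 3 days or 14 days, with 3 arrays per group. All 4 groups carry the same tissue label, and strain, sex, age, burn depth and whether the 0 hours skin was itself burnt are not given in the sources used. Since nothing in the labels ties the repeats to different mice, a p-value here covers the spread between arrays alone, and that spread may be technical.

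Superoxide dismutases turn superoxide into hydrogen peroxide, which catalase, glutathione peroxidases and peroxiredoxins then break down, and glutathione reductase and the thioredoxin system return the reduced thiols these enzymes use. Glutathione transferases couple glutathione to reactive molecules, while cytochromes P450, epoxide hydrolases and aldehyde and alcohol dehydrogenases oxidise or hydrolyse lipids, retinoids and foreign compounds. In many tissues the transcription factor Nrf2 raises a part of these genes through the antioxidant response element, and the aryl hydrocarbon receptor raises Cyp1 genes through the xenobiotic response element.

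Members of 3 different roles had the smallest p in a limma F-test over the 4 time points, Sod3, Txnip and Gsto1. Sod3, the superoxide dismutase secreted into the extracellular matrix, was 3.24-fold higher at 3 days than at 0 hours. Gsto1, an omega-class glutathione transferase, was 2.06-fold higher at 14 days than at 0 hours. Txnip, which binds thioredoxin and restrains it, was 2.32-fold lower at 3 days than at 2 hours. Sod1 and Cyp2e1 were lower at 14 days than at 0 hours, Cyp1b1 peaked at 3 days and Cyp4b1 was higher at 2 hours than at 0 hours. Most tested members passed no test: 8 of 46 were called in at least 1 of 5 comparisons by limma at a Benjamini-Hochberg adjusted p under 0.05, which is the meaning of "called" throughout. These are 17.4% of the members, against 24.1% of all genes called in at least 1 of the same comparisons. Each ± is a limma standard error (3 arrays in each group) where SD is not written, and every change is on the log2 scale of the signal.

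The share of members called was near or below that of all genes. At 2 hours against 0 hours limma called 1 of 46 members, against 5.67% of all genes tested. At 3 days against 0 hours 5 were called, against 13.3% of all genes, and at 14 days against 0 hours 3 were called, against 10.2%. At 3 days against 2 hours 4 were called, against 9.40%, and at 14 days against 3 days 2 were called, against 3.39%. The limma F-test, which asks whether a gene differed between any of the 4 time points, called 11 of 46 members (23.9%), against 21.2% of all genes. The 3 comparisons with 0 hours share their 0 hours arrays, and the comparisons between later time points share arrays with them, so none of these counts is independent of the others.

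The members' values had a lower median than all genes at both late time points, but the counts of separated groups differed between comparisons. The median log2 change of the 46 members was 0.14 at 2 hours, −0.06 at 3 days and −0.18 at 14 days against 0 hours, beside 0.05, 0.02 and 0.05 for all genes tested. The 3 arrays at 14 days lay wholly below the 3 at 0 hours for 13 of the 46 members (28.3%), against 11.7% of all genes, and wholly above them for 5 members, against 17.4%. At 3 days against 0 hours 7 members lay wholly above, against 16.6% of all genes, and 5 wholly below, against 12%. At 3 days against 2 hours 12 members lay wholly below, against 18.5% of all genes, and 3 wholly above, against 16.7%. At 2 hours against 0 hours 11 members lay wholly above, against 13.6%, and 2 wholly below, against 9.78%. The lowest of the 4 mean levels was at 14 days for 19 members (41.3%), against 18.0% of all genes, and the highest was at 2 hours for 18 members (39.1%), against 29.3%. These shares describe the 46 members and were not tested.

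**Figure D1:**
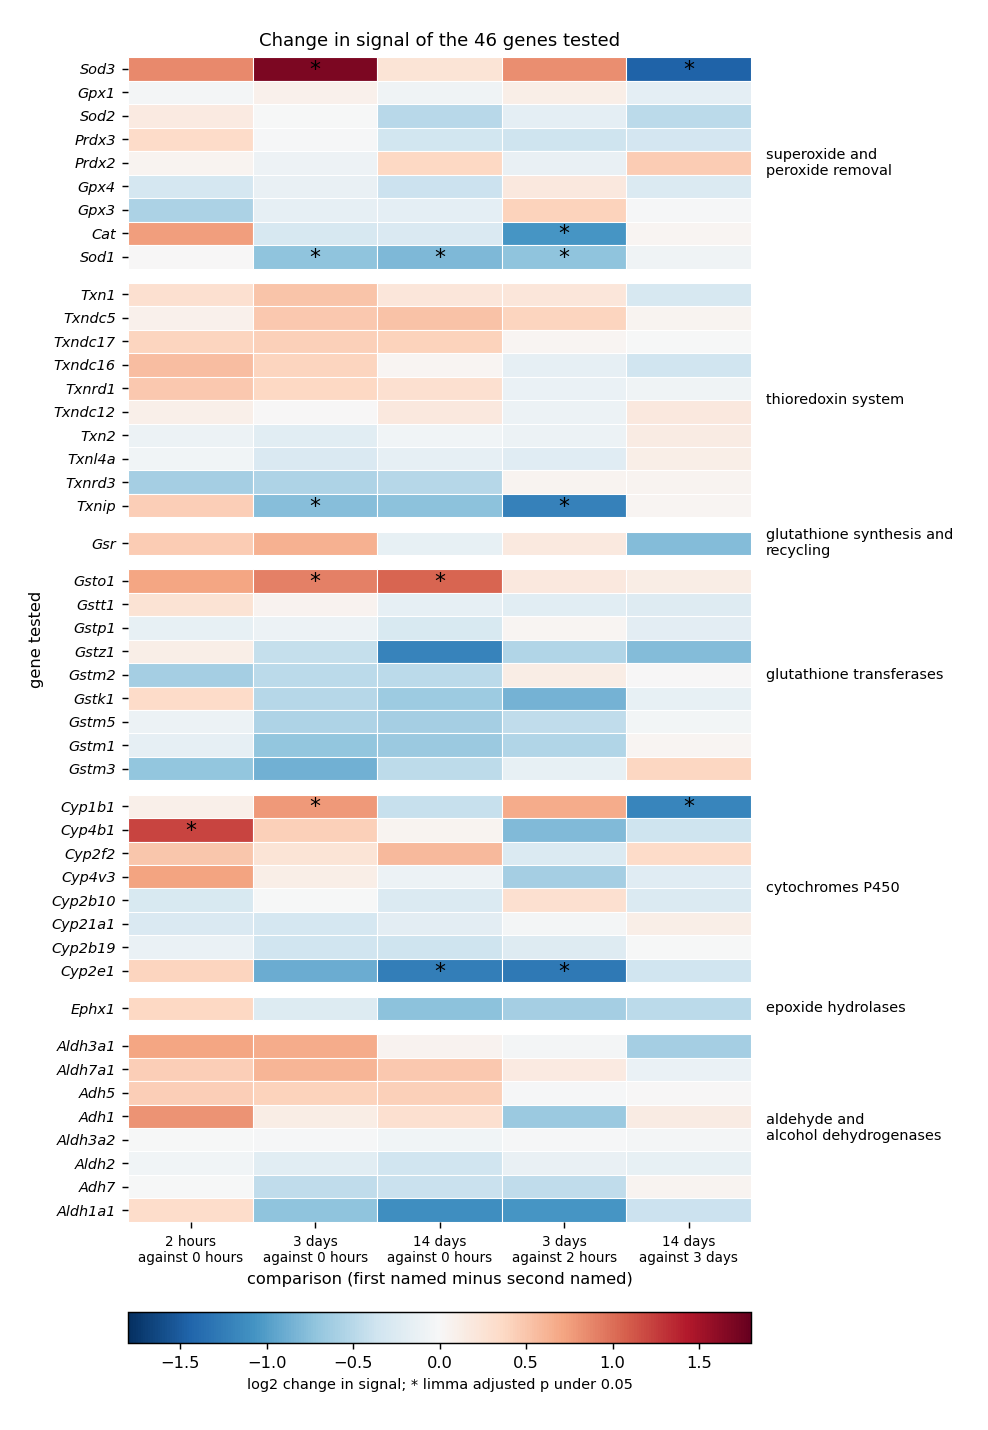
Heat map of the log2 change in signal of the 46 genes tested (rows, grouped by role) in 5 comparisons (columns, the first named time point minus the second), with red for a rise, blue for a fall and an asterisk for a limma adjusted p under 0.05. The 15 asterisks fall on 8 genes, and the darkest cell is that of Sod3 at 3 days against 0 hours, a log2 change of 1.70.

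Other features of the arrays moved with time beside these values. The log2 ratio of the Gapdh control probe sets at the transcript's 3′ end over its 5′ end, a measure of RNA quality, was 1.99 ± 0.29, 1.54 ± 0.46, 0.52 ± 0.50 and 0.21 ± 0.08 (SD, n = 3) at 0 hours, 2 hours, 3 days and 14 days. Skeletal muscle markers fell, 16 of 26 tested at 3 days and 14 of 26 at 14 days against 0 hours, and their summed signal ranged between 140861 and 319916 at 3 days and between 197979 and 285966 at 14 days, against 417253 to 697568 at 0 hours. Of 18 macrophage markers 17 rose at 3 days against 0 hours, with summed signals of 56538 to 89321 at 3 days and 21923 to 26486 at 0 hours. Adipocyte markers summed to 27144 to 55911 at 3 days and 27878 to 48458 at 14 days, against 45321 to 93320 at 0 hours, with 0 of 13 called in either comparison by limma and 2 and 4 of them lower at an unadjusted p under 0.05 at 3 days and 14 days. At 2 hours they summed to 62937 to 83812, wholly above the sums at 3 days. At 3 days against 2 hours limma called 0 of 13, and 4 were lower and 0 higher at an unadjusted p under 0.05. Hair follicle markers rose at 14 days, 6 of 8 against 0 hours and 7 of 8 against 3 days, and the markers summed to 21289 to 57392 at 14 days, against 2766 to 2898 at 3 days and 3975 to 11306 at 0 hours. Against 0 hours they fell for 2 of 8 at 2 hours and for 2 of 8 at 3 days. Differentiated keratinocyte markers rose for 4 of 8 at 14 days against 0 hours and for 4 of 8 against 3 days, summing to 98748 to 132504 at 14 days, against 57750 to 75182 at 3 days and 67170 to 81509 at 0 hours. Neutrophil markers rose for 3 of 4 at 3 days against 0 hours, with sums of 10545 to 32286 at 3 days and 4357 to 6366 at 0 hours. Fibroblast markers fell for 5 of 12 at 2 hours against 0 hours, with sums of 100880 to 113031 at 2 hours and 179132 to 202276 at 0 hours. Against 0 hours 4 of 12 fibroblast markers were called at 3 days and 4 at 14 days. At an unadjusted p under 0.05, 4 were higher and 3 lower at 3 days, and 5 higher and 3 lower at 14 days. Erythroid markers fell for 2 of 2 at 14 days against 3 days, with sums of 7471 to 12772.5 at 14 days and 22289 to 26051 at 3 days. Sebaceous gland markers fell for 2 of 6 at 14 days against 0 hours and for 1 of 6 against 3 days. Basal keratinocyte markers rose for 3 of 8 at 3 days against 0 hours, and 1 of 3 endothelial markers rose at 3 days against 2 hours. No marker of these lists was listed at 0, 1 differentiated keratinocyte marker was under the floor on every array, and the part of these markers in the members' results was not tested. Fewer cells of a type and less RNA per cell cannot be told apart in such bulk samples. After adjustment for the Gapdh ratio 12 of the 15 calls made over the 46 members and 5 comparisons were lost, and adjustment for the muscle marker mean ended 12 as well. Over all genes, calls at 3 days against 0 hours numbered 4 under the Gapdh adjustment and 5 under the muscle adjustment, against 462 without a covariate. The Gapdh ratio was at most 1.047 on every array of 3 days and 14 days and at least 1.054 on every earlier array. The muscle marker mean was at most 12.54 on the late arrays and at least 12.57 on the earlier ones. Both covariates are thus confounded with time, and a call lost under them does not tell the covariate and the time point apart. The calls that neither covariate ended were those of Sod3 and Cyp1b1 at 14 days against 3 days and of Cyp4b1 at 2 hours against 0 hours. Cyp1b1 was bright enough to be tested mainly through its 3 arrays at 3 days, as given below. The Gapdh ratio and the muscle marker mean differed little between 3 days and 14 days (muscle mean 12.26 ± 0.25 at 14 days and 12.09 ± 0.55 at 3 days, SD, n = 3). Over all genes 123 and 129 were called at 14 days against 3 days under these adjustments, beside 118 without. Of 37 calls of pathway genes outside the name rule, described at the end, 31 were lost under the Gapdh adjustment and 28 under the muscle adjustment.

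The start regions of the genes are shown for the 3 members with matches to a searched motif whose signal differed most clearly after the first day. RefSeq promoter windows of GRCm38.p6, 250 bases before to 50 after the transcript start, were found for 55 of the 68 members and 10 of the 12 members described array by array below. Both strands were searched for TGACNNNGC, the core of the antioxidant response element, and GCGTG, the core of the xenobiotic response element, and capitals mark a match on either strand. Each window is printed 5′ to 3′ on the strand of its gene, the plus strand for Sod1 at chr16:90220512-90220811 and Txnip at chr3:96557707-96558006 and the minus strand for Cyp1b1 at chr17:79715012-79715311.
Sod1: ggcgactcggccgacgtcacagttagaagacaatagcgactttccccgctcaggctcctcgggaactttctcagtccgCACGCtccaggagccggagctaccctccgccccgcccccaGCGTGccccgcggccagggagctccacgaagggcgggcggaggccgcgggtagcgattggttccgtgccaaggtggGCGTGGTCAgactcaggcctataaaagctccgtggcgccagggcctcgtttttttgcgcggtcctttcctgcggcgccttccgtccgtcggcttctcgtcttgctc
Txnip: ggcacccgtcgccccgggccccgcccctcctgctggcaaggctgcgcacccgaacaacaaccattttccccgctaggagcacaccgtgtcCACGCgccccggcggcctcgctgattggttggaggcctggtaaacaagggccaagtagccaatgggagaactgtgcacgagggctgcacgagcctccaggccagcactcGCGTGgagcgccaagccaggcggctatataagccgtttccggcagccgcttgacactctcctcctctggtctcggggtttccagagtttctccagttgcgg
Cyp1b1: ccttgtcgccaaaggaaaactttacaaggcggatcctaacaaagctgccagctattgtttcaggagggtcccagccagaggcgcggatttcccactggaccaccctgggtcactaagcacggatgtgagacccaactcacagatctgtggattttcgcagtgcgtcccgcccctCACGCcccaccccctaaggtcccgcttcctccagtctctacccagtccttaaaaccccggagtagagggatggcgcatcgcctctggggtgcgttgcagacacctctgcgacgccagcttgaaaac
In the Sod1 window a minus-strand TGACNNNGC match overlaps one of its 3 GCGTG matches, so the last capitals mark both. TGACNNNGC was found in 7 of 55 member genes (12.7%), beside 12.4% of 32851 windows and 14.0% of 27025 genes. GCGTG was found in 28 of 55 member genes (50.9%), beside 32.4% of windows and 35.2% of genes. Of the 10 members with a window that are described array by array, GCGTG was found in 4 (40%) and TGACNNNGC in 1 (10%). Cyp4v3, which also has a GCGTG match, is not printed. A match is a description of letters, not a binding site, and the windows of Gsto1, Cyp2e1, Cyp4b1, Aldh1a1, Cat and Gstk1 held neither motif.

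**Figure D2:**
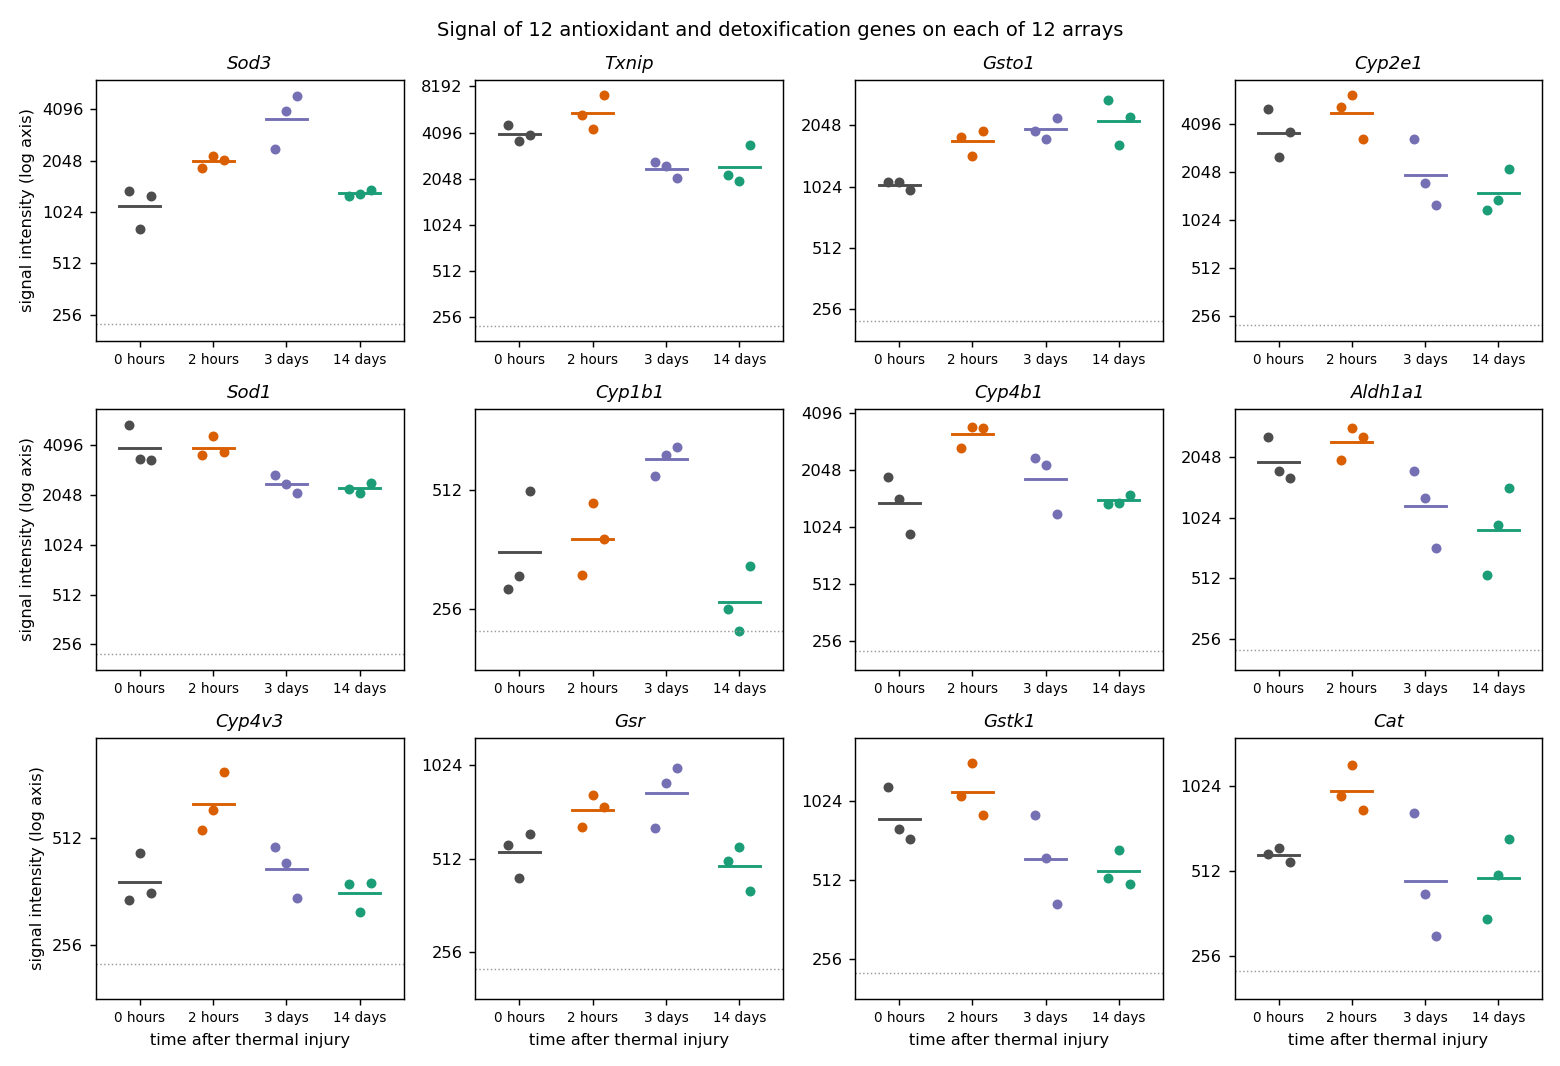
Signal intensity on a log axis of 12 members on each array (points) at 0 hours, 2 hours, 3 days and 14 days, with a bar at the geometric mean of 3 arrays and a dotted line at the floor of 225.375 signal units. All 3 points of Sod3 at 3 days lie above those of every other time point, and all 3 points of Gsto1 at 0 hours lie below those of the later time points.

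Among the enzymes that remove superoxide and peroxide, the secreted superoxide dismutase rose and the cytosolic one fell at 3 days against 0 hours. Sod3 (probe set 94902_at) had 1355, 809 and 1265 signal units at 0 hours, 1844, 2192 and 2072 at 2 hours, 2408, 3994 and 4892 at 3 days, and 1274, 1306 and 1375 at 14 days. Every array at 3 days exceeded every array at the other time points, and the arrays at 14 days overlapped those at 0 hours. Sod3 rose by 1.70 ± 0.26 at 3 days against 0 hours (limma adjusted p = 0.00065) and fell at 14 days against 3 days, by a log2 change of −1.45 ± 0.26 (limma adjusted p = 0.0041). The change at 2 hours against 0 hours was 0.87 ± 0.26 (limma adjusted p = 0.062), with no overlap between the groups. Its fall after 3 days was the 1 call of the 15 that held under every alternative tried. In that comparison macrophage markers fell (9 of 18 called), with sums of 32517 to 35425 at 14 days and 56538 to 89321 at 3 days. Hair follicle and differentiated keratinocyte markers rose in it, and erythroid and sebaceous gland markers fell, as given above. The part of these markers in the fall of Sod3 was not tested. The rise at 3 days was not called after adjustment for the Gapdh ratio (log2 change 1.10, limma adjusted p = 0.874) or with the muscle marker mean (1.37, 0.192).

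Sod1, the cytosolic copper and zinc superoxide dismutase (probe set 100538_at), had 5413, 3374 and 3320.3 signal units at 0 hours, 3540.1, 4654 and 3708 at 2 hours, 2688, 2385 and 2090.2 at 3 days, and 2229.5, 2086 and 2426 at 14 days. All 6 arrays at 3 days and 14 days lay below all 6 at 0 hours and 2 hours. Sod1 fell at 3 days against 0 hours (−0.73 ± 0.21, limma adjusted p = 0.038), at 14 days against 0 hours (−0.81 ± 0.21, 0.028) and at 3 days against 2 hours (−0.73 ± 0.21, 0.047). Its change at 2 hours against 0 hours was 0.00, with a sign that turned after quantile normalization. These calls lay close to the threshold. After adjustment for the muscle marker mean the changes were −0.21 at 3 days and −0.37 at 14 days against 0 hours, and −0.47 at 3 days against 2 hours, none of them called. After adjustment for the Gapdh ratio they were −0.66, −0.73 and −0.68, again without a call. The call at 3 days against 0 hours was lost without any one of 0 hours replicate 1, 2 hours replicate 3, 3 days replicate 2 or 3 or 14 days replicate 2 (limma adjusted p between 0.0522 and 0.153). That at 14 days against 0 hours was lost without any one of 0 hours replicate 1 or 14 days replicate 1, 2 or 3 (limma adjusted p between 0.0534 and 0.111). The call at 3 days against 2 hours was lost without any one of 2 hours replicate 1, 2 or 3, 3 days replicate 2 or 3 or 14 days replicate 1, 2 or 3 (limma adjusted p between 0.0603 and 0.194).

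Catalase, the peroxisomal enzyme that splits hydrogen peroxide, peaked at 2 hours. Cat (probe set 160479_at) had 586, 616 and 550.0 signal units at 0 hours, 939, 1211 and 839 at 2 hours, 823, 423 and 301 at 3 days, and 345, 495 and 664 at 14 days. All 3 arrays at 2 hours lay above all arrays of the other time points, while those at 3 days and 14 days straddled the 0 hours values. Cat fell at 3 days against 2 hours (−1.06 ± 0.32, limma adjusted p = 0.049), and its change at 2 hours against 0 hours was 0.76 ± 0.32 (limma adjusted p = 0.18). The fall was lost without any one of 0 hours replicate 1, 2 or 3, 2 hours replicate 1, 2 or 3, 3 days replicate 2 or 3 or 14 days replicate 2 (limma adjusted p between 0.0511 and 0.252). The limma F-test did not call Cat (adjusted p = 0.063). Adipocyte marker sums were also lower at 3 days than at 2 hours, as given above, and their part in the fall of Cat was not tested.

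The other 6 tested members of this role were not called. Sod2, the mitochondrial manganese superoxide dismutase, had 276, 309 and 394 signal units at 14 days, against 538, 426 and 409 at 0 hours. These groups did not overlap, and the log2 change was −0.49 ± 0.20 (limma adjusted p = 0.13). Gpx3, the glutathione peroxidase secreted into plasma and the brightest tested member of the role, ranged between 6525 to 10121 at 2 hours, against 10386 to 13761 at 0 hours, with a change of −0.57 ± 0.21 (limma adjusted p = 0.13). Gpx1, a cytosolic peroxidase, Gpx4, which reduces lipid hydroperoxides in membranes, and the mitochondrial peroxiredoxin Prdx3 changed by less than 0.5 in size in every comparison, between −0.39 for Gpx4 at 14 days against 0 hours and 0.35 for Prdx3 at 2 hours against 0 hours. Prdx2, an abundant cytosolic peroxiredoxin, had 4412 to 4872 at 14 days, against 3064 to 4337 at 0 hours, a change of 0.38 ± 0.17 (limma adjusted p = 0.17). Prdx1 is outside the rule because its 2 probe sets also name another gene.

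In the thioredoxin system, the inhibitor moved and the enzymes were not called. Txnip (probe set 160547_s_at) had 4584, 3619.9 and 3973 signal units at 0 hours, 5324, 4313 and 7255 at 2 hours, 2635, 2464 and 2067 at 3 days, and 2161, 1969.5 and 3381 at 14 days. All 6 arrays at 3 days and 14 days lay below all 6 arrays at 0 hours and 2 hours. Txnip fell at 3 days against 2 hours (−1.21 ± 0.24, limma adjusted p = 0.0067) and at 3 days against 0 hours (−0.77 ± 0.24, limma adjusted p = 0.048), while its change at 14 days against 0 hours was −0.73 ± 0.24 (limma adjusted p = 0.065). The fall against 2 hours held without each array in turn and was lost with the Gapdh ratio (−0.89, 0.661) or the muscle marker mean (−1.04, 0.0617) as a covariate. The fall against 0 hours was lost without any one of 0 hours replicate 1, 2 or 3, 2 hours replicate 1, 3 days replicate 1, 2 or 3 or 14 days replicate 1 or 2 (limma adjusted p between 0.0502 and 0.182). A dimmer probe set of Txnip, which reached at most 649 signal units, gave −0.61 at 3 days against 0 hours but −0.12 at 3 days against 2 hours.

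Thioredoxin itself, Txn1 and the brightest tested member of the system, ranged between 5525 to 7163 signal units at 3 days, against 3349 to 5720.3 at 0 hours. The groups overlapped, and the log2 change was 0.51 ± 0.23 (limma adjusted p = 0.15). Txnrd1, the cytosolic thioredoxin reductase, changed by 0.48 ± 0.19 at 2 hours against 0 hours with no overlap between the groups (limma adjusted p = 0.15). Txndc5, a disulfide isomerase of the endoplasmic reticulum, had 1048, 1237 and 1327 at 14 days, against 1039.8, 716 and 765 at 0 hours. It lay wholly above, and the change of 0.53 ± 0.20 was not called (limma adjusted p = 0.1). The mitochondrial thioredoxin Txn2, Txnrd3, Txndc12, Txndc16, Txndc17 and the spliceosome protein Txnl4a, which shares the name but not the pathway, were not called either.

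Gsr, the reductase that returns oxidised glutathione to its reduced form with NADPH, was the 1 tested member of glutathione synthesis and recycling. Gsr (probe set 160646_at) had 566, 442 and 617 signal units at 0 hours, 646, 819.9 and 753 at 2 hours, 642, 900.0 and 1006 at 3 days, and 503, 558 and 403 at 14 days. Arrays at 2 hours and 3 days lay above those at 0 hours and at 14 days. The limma F-test called Gsr (adjusted p = 0.042), but its changes at 3 days against 0 hours (0.64 ± 0.22, limma adjusted p = 0.065) and at 14 days against 3 days (−0.79 ± 0.22, limma adjusted p = 0.07) were not called. The F-test call was lost without any one of 0 hours replicate 1, 2 hours replicate 2 or 3, 3 days replicate 2 or 3 or 14 days replicate 1, 2 or 3 (limma adjusted p between 0.051 and 0.103), and with the Gapdh ratio (0.0987) or the muscle marker mean (0.080) as a covariate. Gclm, the modifier subunit of the enzyme that starts glutathione synthesis, stayed between 96.2 and 380.0 signal units on the 12 arrays and was too dim to test.

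Of 9 glutathione transferases tested, Gsto1 rose and 8 were not called. Gsto1, known for reducing mixed disulfides and dehydroascorbate (probe set 97819_at), had 1076, 1077 and 981 signal units at 0 hours, 1789, 1454 and 1921 at 2 hours, 1908, 1761 and 2225 at 3 days, and 2736, 1630.0 and 2239.9 at 14 days. All 9 later arrays lay above the 3 at 0 hours. Gsto1 rose by 0.91 ± 0.21 at 3 days (limma adjusted p = 0.011) and by 1.05 ± 0.21 at 14 days (limma adjusted p = 0.0082), and at 2 hours its change was 0.71 ± 0.21 (limma adjusted p = 0.06). The call at 14 days held without each array in turn, and that at 3 days was lost without 3 days replicate 3 (then a limma adjusted p of 0.061). After adjustment for the Gapdh ratio the changes were 0.77 at 3 days and 0.87 at 14 days, and with the muscle marker mean 0.64 and 0.82, none of them called (limma adjusted p between 0.294 and 0.944).

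The mu-class transferases had lower values at 14 days than at 0 hours without a call. Gstm1, the brightest tested transferase, had 5059.6, 5424 and 5321 signal units at 14 days, against 11442, 6744 and 7626 at 0 hours. The groups did not overlap, and the change was −0.67 ± 0.24 (limma adjusted p = 0.083). Gstm5 had 3997, 4136 and 4380.0 at 14 days, against 6719.9, 6329 and 5991 at 0 hours, again without overlap (−0.61 ± 0.20, limma adjusted p = 0.07), although its dimmer probe set gave −0.23. Gstm2 changed by −0.48 ± 0.21 (limma adjusted p = 0.15), and Gstm3, with 1 array at the floor, by −0.47 ± 0.43 (limma adjusted p = 0.51). The lowest mean of Gstm2 was at 2 hours, with 675, 917 and 658 signal units, against 1134, 1171 and 1088 at 0 hours. Gstm3 had 734, 609 and 176 at 2 hours, against 636, 457 and 1503 at 0 hours. Mu-class genes are closely related in sequence and some of their probe sets are marked as shared within a family, so the share of each gene in these signals is uncertain.

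Gstz1, which isomerises maleylacetoacetate in tyrosine breakdown (probe set 160350_at), had 4289, 1851 and 1631 signal units at 0 hours, 1858, 3859 and 2289 at 2 hours, 2541, 2192 and 954 at 3 days, and 985, 989 and 1092 at 14 days. All 3 arrays at 14 days lay below all 3 at 0 hours, where replicate 1 stood well above the other two arrays. The change at 14 days against 0 hours was −1.20 ± 0.40 (limma adjusted p = 0.065). Without 0 hours replicate 1 it was −0.77 (limma adjusted p = 0.239), and without 0 hours replicate 3 it was −1.46 and called (limma adjusted p = 0.0495). Gstk1, a kappa-class transferase of mitochondria and peroxisomes (probe set 96670_at), had 1156, 797 and 732 signal units at 0 hours, 1064, 1423 and 905 at 2 hours, 905, 622 and 413 at 3 days, and 519, 666 and 495 at 14 days. Its arrays at 14 days lay below those at 0 hours and at 2 hours, and the limma F-test called it (adjusted p = 0.049) while no single comparison did. That call was lost without any one of 0 hours replicate 1 or 2, 2 hours replicate 1, 2 or 3, 3 days replicate 2 or 14 days replicate 1, 2 or 3 (limma adjusted p between 0.051 and 0.142), and with the Gapdh ratio (0.582) or the muscle marker mean (0.064) as a covariate. The pi-class Gstp1 and the theta-class Gstt1 changed by at most 0.29 in size in the 5 comparisons.

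**Figure D3:**
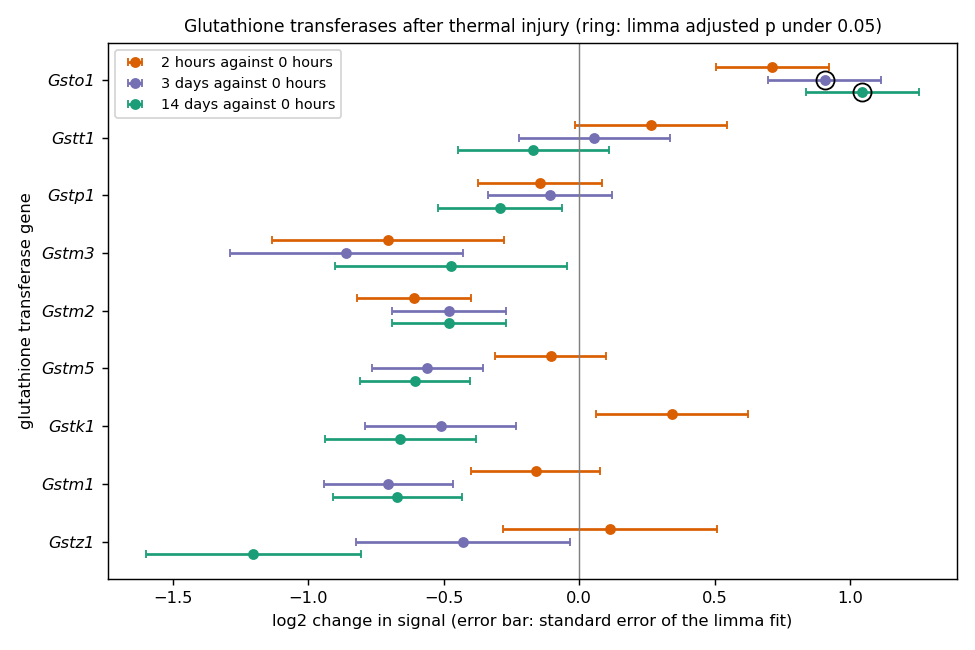
Log2 change in signal of the 9 glutathione transferases tested (rows) at 2 hours, 3 days and 14 days against 0 hours, with error bars of 1 standard error of the limma fit and a ring where the limma adjusted p was under 0.05. The 2 rings belong to Gsto1, at 0.91 and 1.05, and the 14 days points of the other 8 lie below 0.

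Of 8 cytochromes P450 tested 3 were called in at least 1 comparison, beside 24.1% of all genes. Cyp4b1, an oxidase of fatty acids and foreign compounds (probe set 103353_f_at), had 1872, 1439 and 940.4 signal units at 0 hours, 2674, 3447 and 3426 at 2 hours, 2356, 2163 and 1204 at 3 days, and 1358, 1376 and 1515 at 14 days. All 3 arrays at 2 hours lay above every other array. Cyp4b1 rose by 1.21 ± 0.28 at 2 hours against 0 hours (limma adjusted p = 0.021), the 1 member called in that comparison. The call was lost without any one of 0 hours replicate 3 or 2 hours replicate 2 or 3 (limma adjusted p between 0.0727 and 0.0881). A second probe set that also names a pseudogene of Cyp4b1 had 513 to 585 signal units at 2 hours, against 151 to 355 at 0 hours, also without overlap. The tested probe set is itself marked as shared within a family, so related transcripts may add to it.

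Cyp2e1, which oxidises ethanol, acetone and other small molecules (probe set 93996_at), had 5087, 2530.3 and 3620.1 signal units at 0 hours, 5231, 6160.0 and 3302 at 2 hours, 3301, 1738 and 1276 at 3 days, and 1187, 1370.5 and 2127 at 14 days. All 3 arrays at 14 days lay below all arrays at 0 hours and 2 hours, and the arrays at 3 days overlapped those at 0 hours. Cyp2e1 fell at 14 days against 0 hours (−1.25 ± 0.36, limma adjusted p = 0.039) and at 3 days against 2 hours (−1.29 ± 0.36, limma adjusted p = 0.036), and its change at 3 days against 0 hours was −0.89 ± 0.36 (limma adjusted p = 0.11). The first call was lost without any one of 0 hours replicate 1 or 3, 3 days replicate 2 or 14 days replicate 1 or 2 (limma adjusted p between 0.0521 and 0.143). The other was lost without any one of 2 hours replicate 1 or 2, 3 days replicate 2 or 3 or 14 days replicate 2 (limma adjusted p between 0.0502 and 0.179). After adjustment for the muscle marker mean the change at 14 days was −0.26 (limma adjusted p = 0.857). The adipocyte marker sums given above overlapped between 14 days and 0 hours, with 0 of 13 markers called by limma and 4 lower at an unadjusted p under 0.05. Between 3 days and 2 hours, the other comparison in which Cyp2e1 was called, the sums did not overlap (27144 to 55911 and 62937 to 83812). There too 0 of 13 were called and 4 were lower at an unadjusted p under 0.05. The part of these markers in either result was not tested.

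Cyp1b1, a P450 that oxidises oestradiol and retinoids and is a known target of the aryl hydrocarbon receptor (probe set 99979_at), had 288, 310.4 and 508 signal units at 0 hours, 312, 473 and 385 at 2 hours, 556, 626 and 655 at 3 days, and 257, 226 and 329 at 14 days. The 3 days arrays lay above all others, and those of 14 days came close to the floor. Cyp1b1 rose at 3 days against 0 hours (0.77 ± 0.24, limma adjusted p = 0.046) and fell at 14 days against 3 days (−1.19 ± 0.24, limma adjusted p = 0.011). The fall was lost without any one of 3 days replicate 3 or 14 days replicate 2 (limma adjusted p between 0.0515 and 0.0772), and with the floor at the 40th percentile it was −0.76 and still called. The rise was lost without any one of 0 hours replicate 1 or 2, 2 hours replicate 3, 3 days replicate 1, 2 or 3 or 14 days replicate 1 or 2 (limma adjusted p between 0.0542 and 0.149). Cyp1b1 passed the filter on low values through its 3 arrays at 3 days and 1 at 0 hours, so its being tested was tied to a high value at 3 days. Cyp1a1, the best known target of the same receptor, stayed between 112 and 272 signal units and was not tested.

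Cyp4v3, a fatty acid hydroxylase (probe set 160611_at), had 343, 465 and 357 signal units at 0 hours, 539.6, 612 and 783 at 2 hours, 484, 435 and 346 at 3 days, and 380.3, 316 and 382 at 14 days. All 3 arrays at 2 hours lay above all other arrays. The limma F-test called it (adjusted p = 0.032), while its change at 2 hours against 0 hours was 0.73 ± 0.21 (limma adjusted p = 0.054). The F-test call was lost without any one of 2 hours replicate 2 or 3, 3 days replicate 2 or 14 days replicate 1 or 2 (limma adjusted p between 0.0528 and 0.159), and with the Gapdh ratio (0.0624) or the muscle marker mean (0.0545) as a covariate. Cyp4v3 was tested mainly because of its 3 arrays at 2 hours. Cyp2f2 (0.58 ± 0.30 at 14 days against 0 hours, limma adjusted p = 0.22), Cyp21a1, which makes adrenal steroids, Cyp2b10 and the keratinocyte epoxygenase Cyp2b19 were not called.

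The aldehyde and alcohol dehydrogenases gave 0 calls in the 5 comparisons by limma, with 4 of 8 members at an unadjusted p under 0.05 in at least 1 of them. Aldh1a1, which makes retinoic acid from retinal (probe set 100068_at), had 2591, 1748 and 1619.6 signal units at 0 hours, 1989.7, 2851 and 2576 at 2 hours, 1751, 1277 and 723 at 3 days, and 532, 941 and 1433 at 14 days. The 3 arrays at 14 days lay below all arrays at 0 hours and 2 hours, and the spread between the arrays of 3 days and of 14 days was wide. The limma F-test called Aldh1a1 (adjusted p = 0.027), and its change at 14 days against 0 hours was −1.12 ± 0.36 (limma adjusted p = 0.06). The F-test call was lost without any one of 2 hours replicate 2 or 3 or 14 days replicate 1 or 2 (limma adjusted p between 0.0589 and 0.075), and after adjustment for the Gapdh ratio (0.60). Aldh2, the mitochondrial enzyme of acetaldehyde oxidation, had 1450.5, 1766 and 1714 at 14 days, against 2526, 2014 and 1803 at 0 hours, without overlap (−0.35 ± 0.19, limma adjusted p = 0.24). Its 2 other probe sets gave −0.09 and −0.91 in the same comparison. Adh5, which oxidises formaldehyde bound to glutathione, had 936, 1189 and 1168 at 2 hours, against 872, 892 and 661 at 0 hours, wholly above and not called (0.45 ± 0.18, limma adjusted p = 0.16), and its other probe set gave −0.10. Ephx1, the microsomal epoxide hydrolase, spread between 248 to 1069 at 14 days, against 762 to 1253 at 0 hours (−0.73 ± 0.40, limma adjusted p = 0.25).

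No test was made for the 22 members under the filter. Nqo1, a quinone reductase and a standard target of Nrf2, stayed between 23.3 and 139 signal units and never rose above the floor. Aldh18a1, Cyp4a10 and Txnrd2 were likewise under the floor on each of the 12 arrays, so they have no order between time points. The others were Aldh1a3, Aldh1a7, Aldh9a1, Cbr1, Cbr2, Cyp1a1, Cyp3a13, Cyp51, Cyp7b1, Ephx2, Gclm, Gpx2, Gpx7, Gsta3, Gsta4, Prdx4, Txndc9 and Txnl1, none of which passed the median on 3 arrays. Of the 46 tested members, 30 lay above the median on all 12 arrays and 16 on 3 to 11 arrays. Quinone and carbonyl reduction, with Nqo1, Cbr1 and Cbr2, was the role with no tested member.

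Genes of the same pathways outside the name rule were read from 7 lists. Of 7 tested genes among 17 Nrf2 factors and targets 2 were called in at least 1 comparison, beside 24.1% of all genes. Hmox1 rose at 2 hours and Hmox1 and Nfe2l2 rose at 3 days against 0 hours. Nfe2l2, the gene of Nrf2 itself, had 1276, 1337 and 1628 signal units at 3 days, against 882, 741 and 862 at 0 hours. The groups did not overlap, and it rose by 0.77 ± 0.19 (limma adjusted p = 0.017). The call was lost without 3 days replicate 3 (then a limma adjusted p of 0.093) and under both the Gapdh and the muscle adjustment. Hmox1, which degrades haem, rose by 1.47 ± 0.22 at 2 hours (limma adjusted p = 0.0015) and 1.58 ± 0.22 at 3 days (limma adjusted p = 0.0005). Its call at 2 hours held under every alternative, and that at 3 days was lost under both the Gapdh and the muscle adjustment. Hmox1 fell at 14 days against 3 days (−1.03 ± 0.22, limma adjusted p = 0.015), a call lost without any one of 3 days replicate 2 or 3 or 14 days replicate 2 or 3 (limma adjusted p between 0.0519 and 0.099). The metal-binding Mt1 and Mt2 were the 2 called of 8 other peroxide, selenium and repair proteins, beside 24.1% of all genes. Both were highest at 2 hours. Mt1 had 3529, 2962 and 2575 signal units at 0 hours, 20559.8, 29515 and 29589 at 2 hours, 6849, 8387 and 11819 at 3 days, and 5639.6, 4558 and 4986 at 14 days. It rose by 3.13 ± 0.23 at 2 hours against 0 hours (limma adjusted p = 1.9e-06) and fell at 3 days against 2 hours (−1.57 ± 0.23, limma adjusted p = 0.00071). Mt2 rose by 2.35 ± 0.20 at 2 hours against 0 hours (limma adjusted p = 9.3e-06) and fell at 3 days against 2 hours (−1.37 ± 0.20, limma adjusted p = 0.00071). Both calls at 2 hours held under every alternative. At 3 days against 0 hours they were still higher, Mt1 by 1.55 ± 0.23 and Mt2 by 0.98 ± 0.20 (limma adjusted p = 0.00061 and 0.0057), and these calls were lost under both the Gapdh and the muscle adjustment.

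Of 12 tested genes of glutathione and NADPH supply, 5 were called in at least 1 comparison, beside 24.1% of all genes. Glrx, glutaredoxin, which reduces glutathione mixed disulfides, had 704, 678 and 467 signal units at 0 hours, 543, 599.6 and 470.2 at 2 hours, 1272, 1416 and 1792 at 3 days, and 2259, 1078 and 1343 at 14 days. The arrays of 3 days and 14 days lay above all earlier ones. Glrx rose by 1.29 ± 0.26 at 3 days (limma adjusted p = 0.0056) and 1.29 ± 0.26 at 14 days (limma adjusted p = 0.0086) against 0 hours, and both calls held without each array in turn. Both were lost after adjustment for the Gapdh ratio, with changes of 0.60 and 0.46. They were also lost after adjustment for the muscle marker mean, with 0.97 and 1.02. Ggct, which breaks down gamma-glutamyl peptides, had 1963, 1289 and 1592 at 14 days, against 474, 1029 and 802 at 0 hours. It rose by 1.12 ± 0.26 (limma adjusted p = 0.015), a call lost without any one of 0 hours replicate 1 or 14 days replicate 1 (limma adjusted p between 0.0576 and 0.0749). The call of Ggct was also lost under both the Gapdh and the muscle adjustment. The 3 called enzymes that supply NADPH were lower. Pgd of the pentose phosphate pathway fell at 2 hours against 0 hours (−1.05 ± 0.27, limma adjusted p = 0.037), Idh2 at 3 days (−0.83 ± 0.24, 0.037) and the malic enzyme Me1 at 14 days (−1.34 ± 0.34, 0.023). Without 0 hours replicate 1 all 3 calls were lost, with changes of −0.67 for Pgd, −0.51 for Idh2 and −1.01 for Me1. The call of Pgd was lost without any one of 0 hours replicate 1, 2 hours replicate 1, 2 or 3 or 3 days replicate 2 (limma adjusted p between 0.0519 and 0.107). That of Idh2 was lost without any one of 0 hours replicate 1, 3 days replicate 2 or 3 or 14 days replicate 2 (limma adjusted p between 0.0502 and 0.146). That of Me1 was lost without any one of 0 hours replicate 1 or 14 days replicate 1 or 3 (limma adjusted p between 0.0691 and 0.0948). Both adjustments ended all 3 calls. With the muscle marker mean the changes were −0.79 for Pgd, −0.11 for Idh2 and −0.29 for Me1. Muscle markers fell in these comparisons, 3 of 26 at 2 hours, 16 at 3 days and 14 at 14 days. At 14 days sebaceous gland markers fell for 2 of 6, and 4 of 13 adipocyte markers were lower at an unadjusted p under 0.05. At 2 hours 3 adipocyte markers were higher and 0 lower at that p. On 0 hours replicate 1 the muscle sum was 697568, against 451723 and 417253 on replicates 2 and 3. Its adipocyte sum was 93320, against 45894 and 45321, and its sebaceous gland sum 135413, against 78566.5 and 64136. The part of these markers was not tested.

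Of 16 other conjugating and reducing enzymes tested 2 were called in at least 1 comparison, beside 24.1% of all genes. Akr1b8, an aldo-keto reductase, had 1878, 1855 and 2437 signal units at 3 days, against 414, 788 and 952 at 0 hours. It rose by 1.59 ± 0.31 (limma adjusted p = 0.0042), a call that held without each array in turn but not after adjustment for the Gapdh ratio (1.75) or the muscle marker mean (0.57). It also rose by 1.45 ± 0.31 at 3 days against 2 hours (limma adjusted p = 0.0099), lost without 3 days replicate 3 (then a limma adjusted p of 0.052) and under both adjustments. Mgst3, a microsomal glutathione transferase, had 2527, 2294 and 1321 at 3 days, against 6836, 4045 and 3051 at 0 hours, and fell (−1.15 ± 0.30, limma adjusted p = 0.022). Its call was lost without any one of 0 hours replicate 1 or 3 days replicate 3 (limma adjusted p between 0.0882 and 0.118), and after adjustment for the muscle marker mean its change was 0.03. Muscle markers fell in the same comparison, as given above.

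Among oxidant sources, 4 of 8 tested genes were called in at least 1 comparison, beside 24.1% of all genes. Cyba, a membrane subunit of the phagocyte NADPH oxidase, had 3062, 4047 and 4802 signal units at 3 days, against 1514, 1478 and 1452 at 0 hours. It rose by 1.40 ± 0.23 against 0 hours (limma adjusted p = 0.0012) and by 1.70 ± 0.23 against 2 hours (limma adjusted p = 0.00045), and both calls held without each array in turn. The call against 0 hours was lost after adjustment for the Gapdh ratio (0.48) or the muscle marker mean (1.17), and that against 2 hours for the Gapdh ratio (1.06). Macrophage markers, which rose in the same comparisons (17 of 18 in each), moved with Cyba, and their part was not tested. Ero1a, the oxidase of disulfide formation in the endoplasmic reticulum, rose by 1.00 ± 0.22 at 3 days against 0 hours (limma adjusted p = 0.0086, lost without 3 days replicate 3 (then a limma adjusted p of 0.055)). Sat1, of polyamine breakdown, rose by 1.02 ± 0.26 (limma adjusted p = 0.02, lost without any one of 0 hours replicate 1 or 3 or 3 days replicate 3 (limma adjusted p between 0.0541 and 0.0882)). The aldehyde oxidase Aox1 fell at 3 days (−0.96 ± 0.20, limma adjusted p = 0.0056) and at 14 days against 0 hours (−0.99 ± 0.20, 0.008), but 1 and 2 of its arrays lay at the floor, and with the floor at the 40th percentile the changes were −0.44 and −0.44 and not called. Both the Gapdh and the muscle adjustment ended the calls of Ero1a, Sat1 and Aox1 against 0 hours. Aox1 exceeded the filter's 475.55 signal units only on arrays of 0 hours and 2 hours, and reached at most 292.7 at 3 days and 14 days. Its being tested, and its place among the called oxidant sources, was thus tied to high values at the early time points.

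The lists of receptors and of retinoid handling add genes to those of Cyp1b1 and Aldh1a1. Rxra, the shared partner of retinoid, vitamin D and lipid receptors, had 578, 559 and 283 signal units at 0 hours, 673, 668 and 780.4 at 2 hours, 981, 1099 and 1252 at 3 days, and 1402, 1301 and 1375 at 14 days. All 6 late arrays lay above all 6 early ones. Rxra rose by 1.30 ± 0.24 at 3 days (limma adjusted p = 0.003) and 1.59 ± 0.24 at 14 days (limma adjusted p = 0.0015) against 0 hours, and both calls held without each array in turn. Both were lost after adjustment for the Gapdh ratio, with changes of 0.78 and 0.97, and for the muscle marker mean, although the changes then were 1.41 and 1.69. The vitamin D receptor Vdr rose by at least 1.26 ± 0.28 at 14 days (limma adjusted p = 0.013), with 1 array at the floor at 0 hours and the call lost without 0 hours replicate 1 (then a limma adjusted p of 0.059). Rarres2, which encodes chemerin, rose by 1.24 ± 0.28 at 3 days against 0 hours (limma adjusted p = 0.0095), a call lost without 3 days replicate 3 (then a limma adjusted p of 0.056), and fell at 14 days against 3 days (−1.87 ± 0.28, limma adjusted p = 0.0014). Crabp1, which binds retinoic acid in the cytosol, did not exceed the floor on any 0 hours array and was at least 2.34-fold higher at 3 days (limma adjusted p = 0.035, lost without any one of 0 hours replicate 1, 2 or 3 or 3 days replicate 2 or 3 (limma adjusted p between 0.0643 and 0.154)). It was at least 3.18-fold higher at 14 days (limma adjusted p = 0.01, lost without 14 days replicate 1 (then a limma adjusted p of 0.055)). The retinoic acid receptor Rarg rose by at least 1.13 ± 0.29 at 3 days against 2 hours (limma adjusted p = 0.026), with 2 of its 2 hours arrays at the floor. With the floor at the 40th percentile the change of Rarg was 0.47 and not called, and its call was lost without any one of 2 hours replicate 1, 2 or 3 or 3 days replicate 2 or 3 (limma adjusted p between 0.0633 and 0.125). Both the Gapdh and the muscle adjustment ended the calls of Vdr, Crabp1 and Rarg and that of Rarres2 at 3 days. Crabp1 exceeded the filter's 475.55 signal units only on arrays of 3 days and 14 days, and Vdr only on arrays of 2 hours and 14 days. Their being tested was thus tied to high values at time points then called higher. Rarg exceeded it on no array of 2 hours. Without the filter the calls of Crabp1, Vdr and Rarg were lost. In all, 3 of 5 receptors tested were called in at least 1 comparison, beside 24.1% of all genes. Of 5 tested genes of the retinoid handling list 2 were called, beside the same 24.1%. These were Crabp1, which was at the floor at 0 hours, and Rarres2, listed here although it encodes chemerin.

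**Figure D4:**
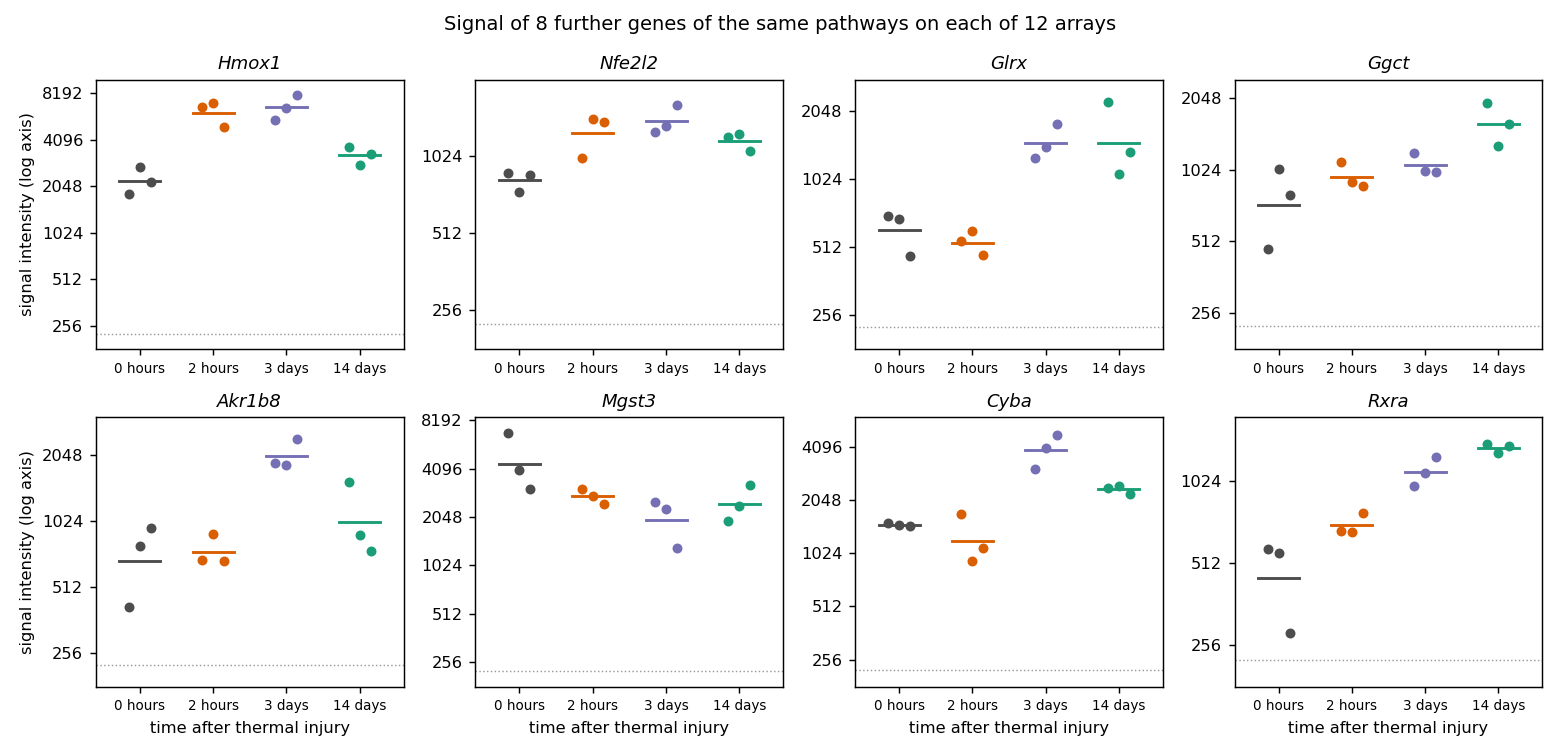
Signal intensity on a log axis of 8 genes outside the name rule on each array (points) at 0 hours, 2 hours, 3 days and 14 days, with a bar at the geometric mean of 3 arrays and a dotted line at the floor of 225.375 signal units. The points of Glrx and Rxra at 3 days and 14 days lie above all their earlier points, and those of Cyba are highest at 3 days.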

How the data were processed

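RNA from 12 mouse skin samples was measured on 1 Affymetrix array each, in 4 groups of 3 taken from the labels. The deposited table gives linear signal intensity per probe set, without detection calls. The software, scaling target and probe set filter that the authors used are not given in the sources used. Gene symbols came from the platform annotation table.

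Of 7275 probe sets, 27 controls were left out, 6551 named 1 symbol, 251 several and 446 none, and only the 6551 were used for genes. Values under the pooled 25th percentile (225.375) were raised to that floor before taking log2. A probe set had to exceed the pooled median (475.55) on 3 or more arrays, and the brightest by mean stood for its gene. All 12 arrays were fitted with limma 3.58.1 in R 4.3.3, using a coefficient for each time point, which left 8 residual beside 6.64 prior degrees of freedom, and p-values were adjusted over all 3477 genes by the Benjamini-Hochberg method. Python 3.11.15, pandas 2.3.3 and matplotlib 3.10.9 made the tables and plots. The fit was tested on simulated data with independent noise for each gene and array. That test held no differences shared by whole arrays, such as RNA quality or muscle content, so it cannot show how the fit behaves under them. With 3 arrays a side the smallest exact p is 0.1, and the number of arrays limits the precision.

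Described array by array are the members called in at least 1 comparison or by the F-test. The text also names the brightest tested member of each role, the uncalled member of each role with the smallest F-test p, and up to 4 called genes per comparison of 7 pathway lists. Members, pathway lists and 11 marker lists were chosen with earlier results of these data known, and other members are named to account for all of them. The replicate numbers gave no pairing, since deviations from the group means correlated above 0.1 in only 2 of 18 pairs of arrays with equal numbers (median −0.066). Alternatives changed the scaling (quantile normalization, median scaling), the floor (10th or 40th percentile), the filter (none, or the 75th percentile), the choice of probe set (highest variance) and the model (array weights, trended and robust variance, a replicate block, or a covariate, either the Gapdh ratio of 3′ over 5′ signal or the mean of muscle markers), and each array was left out in turn.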

Additional observations from a re-analysis of the deposited data

How the results depend on the processing

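Counts of called members were small and moved with most choices, and the causes were not tested. Without the filter limma called 0 members at 2 hours against 0 hours (10 at an unadjusted p under 0.05), 2 at 3 days, 1 at 14 days, 1 at 3 days against 2 hours, 1 at 14 days against 3 days and 4 by the F-test, with more genes tested. With the Gapdh ratio as a covariate the counts were 2 at 2 hours, 0 at 3 days, 0 at 14 days, 0 at 3 days against 2 hours and 3 by the F-test, with 3, 2 and 4 members at an unadjusted p under 0.05 where limma called 0. With the muscle marker mean they were 3, 0, 0 and 0 and, by the F-test, 7, with 8, 6 and 4 members at an unadjusted p under 0.05. The change of Mgst3 at 3 days against 0 hours then turned to 0.0296. Array weights gave 13 members at 3 days against 2 hours, 6 at 14 days against 3 days and 17 by the F-test. These are 28.3%, 13% and 37.0% of members, beside 26.9%, 10.5% and 35.9% of all genes. Other moved counts were 2 with the floor at the 40th percentile, 3 with the filter at the 75th and 3 with trended and robust variance at 2 hours. They were 2 with the floor at the 10th percentile at 3 days against 2 hours, 5 with the highest variance probe set at 14 days, and 1 with the filter at the 75th percentile at 14 days against 3 days. The replicate block gave 3 at 3 days against 0 hours, 2 at 3 days against 2 hours and 9 by the F-test, although the numbers did not pair the arrays, and it moved none of the other 3 counts.

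Leaving out 1 array gave 0 to 2 called members at 2 hours, 1 to 7 at 3 days and 1 to 6 at 14 days against 0 hours, 1 to 7 at 3 days against 2 hours, 1 to 3 at 14 days against 3 days and 6 to 14 by the F-test. Limma called 0 at 2 hours without 0 hours replicate 3, 2 hours replicate 2 or 2 hours replicate 3 (7, 9 and 8 at an unadjusted p under 0.05). It called 1 at 3 days without 3 days replicate 3, and 1 at 14 days without 0 hours replicate 1, 14 days replicate 1 or 14 days replicate 2. Of the 15 calls, 4 held without each array in turn: Sod3 at 3 days against 0 hours and at 14 days against 3 days, Gsto1 at 14 days against 0 hours, and Txnip at 3 days against 2 hours. The arrays whose absence ended a call are named beside that call above. Values near the floor, such as those of Cyp1b1 at 14 days, and the 3 arrays per time point limit what can be told apart.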

Other observations

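Prdx1, a cytosolic peroxiredoxin, was left out of the comparisons because both of its probe sets also name another gene. One of them gave 6601 to 7999 signal units at 2 hours, 7373 to 7767 at 3 days and 7398 to 9805 at 14 days, against 4898 to 10134 at 0 hours. The other gave 8485 to 10419 at 2 hours, 8288 to 9270.4 at 3 days and 8167 to 11068 at 14 days, against 5919 to 9794 at 0 hours. On both probe sets the 0 hours range overlapped that of each later time point.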
